A study of Mus musculus with 33 samples.

Results

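The eosinophil granule genes described here are Prg2, Prg3, Epx, Ear1, Ear2 and Ear6, with Il5ra, the receptor gene of the same lineage. They were taken by symbol from a table of 54752 features, and all 7 had a row, had counts and passed the filter on low counts. Levels were measured by bulk RNA sequencing of 33 libraries of cells sorted from mouse bone marrow, in 11 groups of 3 biological replicates. The 7 control groups came from animals described as wild-type controls. One was the shared progenitor of granulocytes and monocytes that lacks Ly6C (Ly6C- GMP). On the way to neutrophils followed proNeu1, then proNeu2, then preNeu, and on the way to monocytes cMoP, then TpMo, then the Ly6Chi monocyte. The other 4 groups, called septic below, were Ly6C- GMP, proNeu1, proNeu2 and preNeu sorted by the same gates 3 days after mid-grade CLP, a puncture of the caecum that causes abdominal sepsis. No transgene or deletion is named for any group, and the labels do not give strain, age or the operation, if any, of the controls. Each group is what 1 sort gate collected and can hold several kinds of cell.

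Eosinophils arise in the bone marrow from myeloid progenitors, and their granules fill with cationic proteins while the cells are still immature. Prg2 encodes major basic protein, which forms the crystalline core of the granule, and Prg3 encodes its homologue. Epx encodes eosinophil peroxidase, a haem enzyme that makes hypohalous acids, and the Ear genes encode eosinophil-associated ribonucleases of the RNase A superfamily, a family that has expanded in rodents. Il5ra encodes the chain of the interleukin-5 receptor that binds the cytokine, and interleukin-5 drives the growth and survival of cells committed to this lineage. Transcription factors known for a role in eosinophil development include GATA1, PU.1 and members of the C/EBP family.

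The genes lie on 4 chromosomes (GRCm38). Prg2 (chr2:84980461-84983632, plus strand) and Prg3 (chr2:84988215-84993886, plus strand) are neighbours with 4583 bases between them. Epx (chr11:87864000-87875536, minus strand) lies 59587 bases from Mpo, the myeloperoxidase gene of neutrophil granules. Ear1 (chr14:43818765-43875517, minus strand), Ear2 (chr14:44102654-44103534, plus strand) and Ear6 (chr14:51853699-51854643, plus strand) share chromosome 14, and Il5ra (chr6:106710357-106749037, minus strand) stands alone. Of the 7 genes, 6 matched an entry in the RefSeq promoter table (GRCm38.p6), Prg2 not among them. The windows searched were the 250 bases before the RefSeq start. For Ear1 that start lies inside the gene as GENCODE draws it, far from the start printed here, and the Ear6 window holds 69 exon bases of Ear6 in GENCODE, so the annotations place these starts differently.

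Promoters are shown for 4 genes, because levels given further on part ways between near-identical genes (Ear1 and Ear2) or because they held a match to GATA factor letters (Prg3 and Il5ra). Each runs 5′ to 3′ in the direction of the gene, and capitals mark a motif match.
Ear1 (chr14:43819640-43819889, minus strand): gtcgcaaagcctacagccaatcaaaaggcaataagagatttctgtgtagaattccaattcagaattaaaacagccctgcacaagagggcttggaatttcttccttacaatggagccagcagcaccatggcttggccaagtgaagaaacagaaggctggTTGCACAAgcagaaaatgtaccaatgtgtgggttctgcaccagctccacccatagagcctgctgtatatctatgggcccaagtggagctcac
Ear2 (chr14:44102404-44102653, plus strand): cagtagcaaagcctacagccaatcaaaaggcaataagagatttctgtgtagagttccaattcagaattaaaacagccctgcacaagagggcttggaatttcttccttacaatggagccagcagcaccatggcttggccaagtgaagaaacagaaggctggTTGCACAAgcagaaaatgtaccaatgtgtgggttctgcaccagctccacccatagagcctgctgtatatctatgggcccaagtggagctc
Prg3 (chr2:84987965-84988214, plus strand): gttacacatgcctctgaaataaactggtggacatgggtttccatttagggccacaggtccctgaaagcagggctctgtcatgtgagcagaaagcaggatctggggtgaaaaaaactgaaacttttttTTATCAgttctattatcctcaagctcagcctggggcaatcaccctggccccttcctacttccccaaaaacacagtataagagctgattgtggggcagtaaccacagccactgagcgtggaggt
Il5ra (chr6:106749038-106749287, minus strand): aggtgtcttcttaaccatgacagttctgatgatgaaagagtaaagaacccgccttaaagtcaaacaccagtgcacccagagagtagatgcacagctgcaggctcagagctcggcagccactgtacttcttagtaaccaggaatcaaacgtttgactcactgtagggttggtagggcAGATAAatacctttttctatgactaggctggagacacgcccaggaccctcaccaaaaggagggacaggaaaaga

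The Ear1 and Ear2 windows were identical at 97.6% of 252 aligned positions, and both held the C/EBP motif TTGCACAA, at 92 to 85 bases before the start in Ear1 and 90 to 83 in Ear2. Against the Ear6 window, identity was 78.2% for Ear1 and 77.7% for Ear2. Prg3 held a GATA match, TTATCA, on the opposite strand at 123 to 118 bases before the start, and Il5ra held AGATAA at 74 to 69 bases before the start. The letters searched on both strands were, for GATA factors, AGATAA with T also allowed as its first and G as its last letter, for C/EBP factors TTGCNNAA, and for PU.1 the run GAGGAAGT, and the matches did not overlap each other. Among 32851 promoter windows of the same length, 26.5% held the GATA letters, 9.56% the C/EBP letters and 2.44% the PU.1 letters. Epx and Ear6 matched none of the 3 motifs, and no window of the 6 genes matched the PU.1 letters.

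Totals ran from 5517734 to 39977745 counts per library. The 5 shallow libraries, proNeu1 replicate 1, preNeu replicate 3, Ly6Chi monocyte replicate 2, septic proNeu1 replicate 1 and septic preNeu replicate 3, had at most 6781973 counts and all others at least 17237611 counts. Levels are CPM, a gene's counts scaled to a common library total after TMM scaling (a correction of library size for composition), given as mean ± SD with n = 3 libraries per group. To compare genes with each other, RPKM divides the same value by the gene's length in kilobases. Changes are log2 fold changes ± SE from edgeR's quasi-likelihood test over 18198 genes and all 33 libraries, and a gene is called when its Benjamini-Hochberg adjusted p is under 0.05. All 9 monocyte-path libraries had 61.2 to 94.6 CPM of the Y-linked gene Ddx3y and at most 1.23 CPM of Xist, while the other 24 had at most 0.782 CPM of Ddx3y and at least 155 CPM of Xist. Monocyte-path groups therefore differ from Ly6C- GMP in the sex of the animals as well as in cell type. Sorted populations carried their own markers: Ltf, the lactoferrin gene, peaked in preNeu at 39305 ± 9151 CPM, and Mpo in proNeu2 at 65287 ± 5292 CPM.

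The control Ly6C- GMP gate held most of this programme. The 7 genes together made up 0.651% of its counts, 5637 ± 1824 CPM, against 38.6 ± 10.9 CPM in proNeu1 and 7.198 ± 3.37 CPM in cMoP. Per length, Prg2 was at 4587 ± 1463 RPKM in Ly6C- GMP, Epx at 510.1 ± 175 and Prg3 at 333 ± 92.8. The 3 ribonuclease genes were far lower, from 20.7 ± 13.0 RPKM for Ear6 to 28.6 ± 14.5 for Ear2, and Il5ra was at 5.95 ± 0.728 RPKM. Prg2 ranked 5 among all genes of this gate by RPKM, Epx 36 and Prg3 65. From Ly6C- GMP to proNeu1 all 7 genes were called lower, where 6.04% of all genes tested were called either way, 3.59% higher and 2.45% lower. From Ly6C- GMP to cMoP all 7 were called lower too, where 17.2% of all genes were called, 9.22% higher and 7.96% lower. These comparisons share the Ly6C- GMP libraries, so they are not separate evidence. In bulk samples, fewer cells of a type and less RNA per cell cannot be told apart.

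**Figure D1:**
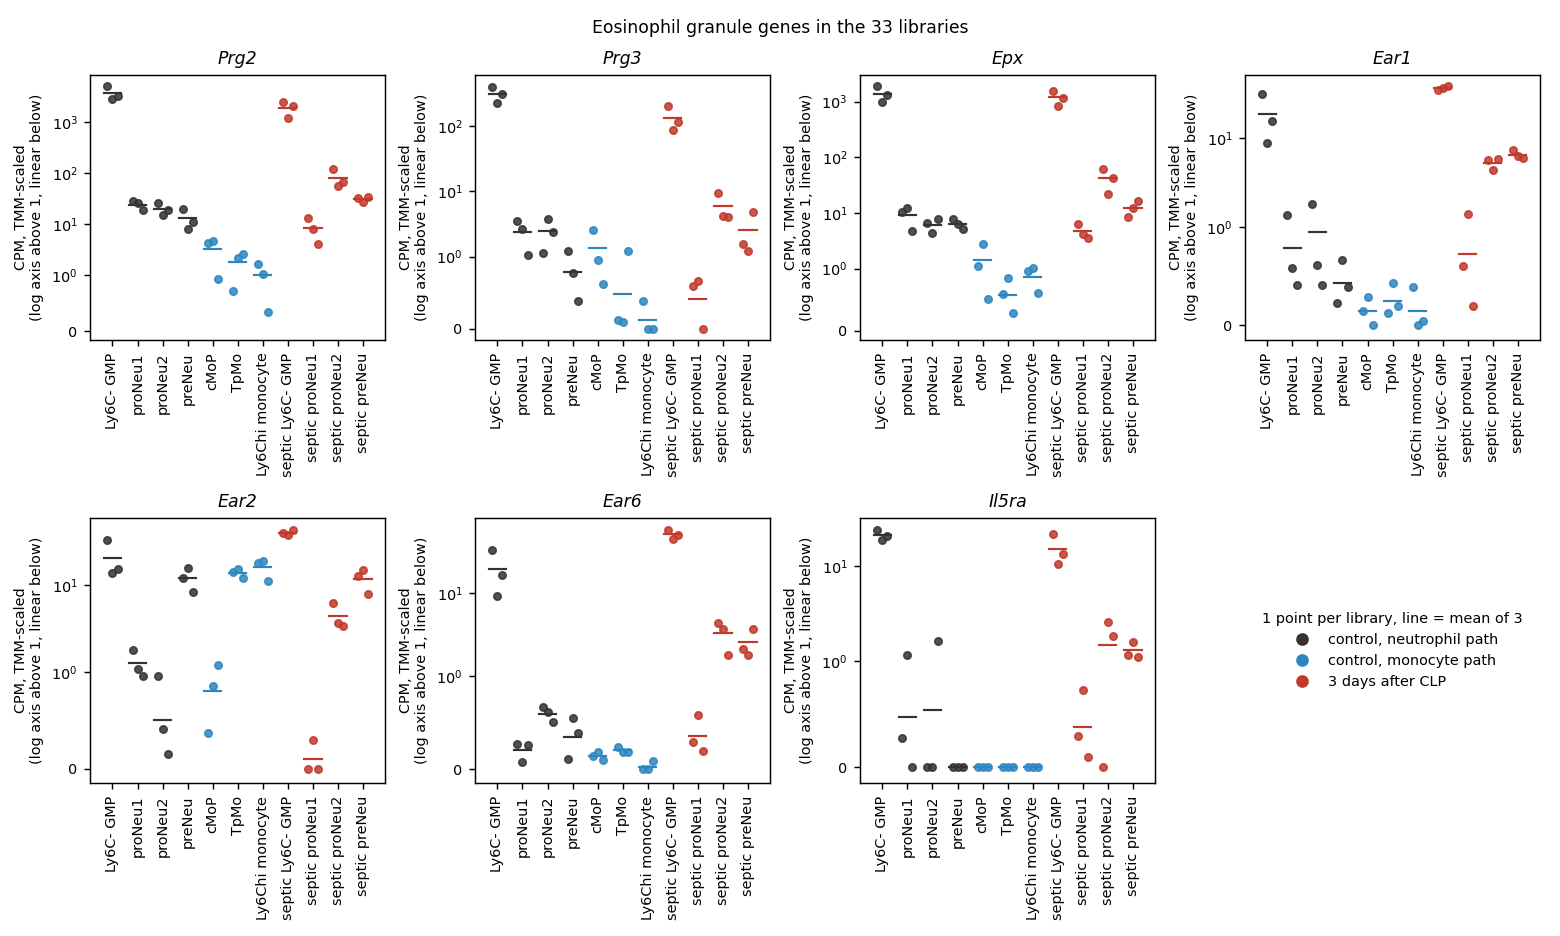
Level of each of the 7 genes in CPM after TMM scaling (vertical axis, logarithmic above 1 and linear below) in 11 groups (horizontal axis), with 1 point per library and a line at the mean of 3. The highest point of each gene lies in control or septic Ly6C- GMP, and Ear2 is the gene whose points in TpMo and Ly6Chi monocytes, at 11.03 CPM or more, come near those of control Ly6C- GMP.

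Prg2 was measured at 5238, 2933 and 3360.4 CPM in the 3 control Ly6C- GMP libraries. In proNeu1 the libraries held 28.5, 25.5 and 18.6 CPM. The libraries of the 2 groups did not overlap, and the change was -7.33 ± 0.54 (edgeR adjusted p = 1.6e-10). The level then stayed low along the neutrophil path, at 19.8 ± 5.6 CPM in proNeu2 and 13.0 ± 6.2 CPM in preNeu, with overlapping libraries at each of these steps. Along the monocyte path Prg2 fell to 3.28 ± 2.04 CPM in cMoP, and TpMo (1.82 ± 0.98) and Ly6Chi monocytes (1.00 ± 0.65) held still less, but no step after cMoP was called. The order of the control groups was therefore Ly6C- GMP, proNeu1, proNeu2, preNeu, cMoP, TpMo and Ly6Chi monocyte, and apart from the step below Ly6C- GMP and the step from preNeu to cMoP, neighbours in it overlapped.

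Prg3 was also high in Ly6C- GMP, at a lower level than Prg2. It was at 406, 230.3 and 312 CPM in control Ly6C- GMP, and at 3.56, 2.61 and 1.05 CPM in proNeu1 (-7.17 ± 0.75, edgeR adjusted p = 1.23e-07). All other control libraries held at most 3.78 CPM, and 2 of 3 Ly6Chi monocyte libraries had no Prg3 count. In TpMo its 3 libraries spread from 0.0947 to 1.23 CPM, and without the highest of them, TpMo replicate 3, the fall from cMoP was called at -3.70 (adjusted p = 0.0302) where the full data gave -1.49 ± 0.81 (adjusted p = 0.239). The count ratio of Prg2 to Prg3 was 12.2 in control Ly6C- GMP, with libraries from 10.8 to 12.9, and 11.9 in proNeu1 (8.0 to 17.75). It was 8.23 in proNeu2 (3.97 to 22.6), 2.30 in cMoP (1.5 to 4.9) and 3.73 in TpMo, where counts of both genes were low. The open reading frames of the neighbouring genes were identical at 66.3% of aligned positions, and no stretch of 50 bases of either transcript occurred in another gene's transcript.

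Epx was at 1919, 974 and 1296 CPM in control Ly6C- GMP and at 10.3, 12.5 and 4.82 CPM in proNeu1, a change of -7.27 ± 0.48 (edgeR adjusted p = 4.03e-11). Its levels further on were 6.18 ± 1.73 CPM in proNeu2 and 6.38 ± 1.37 in preNeu, and at most 2.75 CPM in every monocyte-path library. Its neighbour Mpo ran the other way at the same step. Mpo was at 34424 ± 4159 CPM in Ly6C- GMP and rose to 55696 ± 2850 in proNeu1 (0.69 ± 0.15, adjusted p = 0.00401). For each Mpo count there were 0.0401 Epx counts in Ly6C- GMP and 0.000142 in proNeu1. The 2 peroxidases had open reading frames identical at 71.4% of aligned positions. Lpo, the lactoperoxidase gene, was at no more than 10.2 CPM in any group on average and was not called in either comparison with Ly6C- GMP.

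The 3 ribonuclease genes were similar to each other in Ly6C- GMP and parted elsewhere. In control Ly6C- GMP, Ear1 was at 31.7, 8.78 and 15.9 CPM, Ear2 at 32.6, 13.9 and 15.3 and Ear6 at 33.2, 9.31 and 16.3. Replicate 1 was the highest library for each, as it was for Prg2, Prg3 and Epx. All 3 genes were lower in proNeu1, where Ear1 was at 0.786 ± 0.515 CPM (-4.73 ± 0.78, edgeR adjusted p = 0.000149), Ear2 at 1.27 ± 0.44 (-4.09 ± 0.56, adjusted p = 1.27e-05) and Ear6 at 0.203 ± 0.113 (-6.63 ± 0.65, adjusted p = 3.41e-08).

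Ear2 then came back on both paths, and it was the only one of the 7 genes that edgeR's full fit called at any later step of the control groups. In preNeu its libraries held 12.03, 15.7 and 8.41 CPM, against 0.960, 0.408 and 0.151 in proNeu2 (4.56 ± 0.59, edgeR adjusted p = 7.43e-07). It was 1 called gene of 7, beside 13.1% of all genes tested that were called higher in preNeu and 27.8% called either way. In TpMo its libraries held 14.1, 15.3 and 11.9 CPM, against 0.367, 0.855 and 1.19 in cMoP (4.12 ± 0.57, adjusted p = 3.97e-06), where 9.52% of all genes were called higher. Neither rise lost its call in any alternative processing tried. Ly6Chi monocytes held 18.1, 19.0 and 11.03 CPM of Ear2, which overlapped TpMo (0.21 ± 0.48, adjusted p = 0.846). At that step 0 of the 7 genes were called by edgeR, against 20.9% of all genes called either way (7.59% higher), and 1, Ear6, had an unadjusted p under 0.05 in edgeR's fit (0.0224). Without Ly6Chi monocyte replicate 3, Ear6 was called lower (adjusted p = 0.03). From proNeu1 to proNeu2, edgeR also called 0 of 7, against 3.05% of all genes. Ear2 and Ear6 had an unadjusted edgeR p under 0.05 there, of 0.044 and 0.0146. DESeq2 and limma called 0 of the 7 genes at either of these steps.

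Ear1 and Ear6 did not share the return of Ear2. For each Ear2 count there were 0.904 Ear1 counts in control Ly6C- GMP, 0.0333 in preNeu, 0.0184 in TpMo and 0.0122 in Ly6Chi monocytes. Ear6 counts per Ear2 count were 0.944, 0.0259, 0.0147 and 0.0027 in the same groups. Among the control groups, in order of its mean, Ear2 was highest in Ly6C- GMP (20.6 ± 10.4 CPM), then Ly6Chi monocytes (16.1 ± 4.4), TpMo (13.8 ± 1.7) and preNeu (12.04 ± 3.63), and the libraries of these 4 groups overlapped. Its lowest control means were in cMoP (0.803 ± 0.413) and proNeu2 (0.506 ± 0.413).

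The ribonuclease genes resemble each other in sequence, which limits how well short reads tell them apart. The open reading frames of Ear1 and Ear2 were identical at 95.3% of aligned positions, those of Ear1 and Ear6 at 87.6% and those of Ear2 and Ear10 at 97.0%. Of all stretches of 100 bases in the Ear2 transcript, 13.9% also occurred in Ear10, and for Ear1 the share was 2.44%, while Ear6 had 0. Of stretches of 50 bases, 37.6% of those of Ear2 and 28.6% of those of Ear1 occurred in another Ear gene. How reads with several positions were counted is not given in the sources used here. Ear10 itself averaged no more than 0.232 CPM in any group, and Ear14 had no counts. With the counts of all 7 Ear family genes in the table summed, the rises in preNeu (2.65 ± 0.46, adjusted p = 5.21e-05) and TpMo (3.61 ± 0.48, adjusted p = 2.47e-06) were called as well. Ear1 shares 17 of its exon bases with the pseudogene Ear-ps9 on the same strand, which had 215 counts over all libraries.

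Il5ra was at 24.0, 18.9 and 20.9 CPM in control Ly6C- GMP, with an SD of 2.60 CPM. It had no count in any of the 12 libraries of control preNeu, cMoP, TpMo and Ly6Chi monocytes. A count of 3 over the group would have been 0.0443 CPM in cMoP. Against that floor Il5ra was 479.6-fold lower there than in Ly6C- GMP (edgeR adjusted p = 0.00112). This bound covers counting error only and takes counts as independent. Over all genes, 76.2% of counts from 1 to 10 were even and mate counting is not given, so the bound may be lower. In proNeu1 the libraries held 0.274, 1.16 and 0 CPM (-5.42 ± 1.54, adjusted p = 0.0412). That call was lost without the shallow libraries (adjusted p = 0.158) and without any 1 of 5 of the 6 libraries compared (0.0682 to 0.13), though the change stayed at -4.79 or lower. In proNeu2 only replicate 3 held Il5ra, at 1.62 CPM.

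The partners of the interleukin-5 receptor did not share this pattern. Csf2rb, the beta chain used in common with the receptors for interleukin-3 and GM-CSF, had 178 ± 51.0 CPM in Ly6C- GMP and 139 ± 8.9 in proNeu1, but 429.5 ± 55.4 in preNeu and 557 ± 60.4 in Ly6Chi monocytes. Lyn, a kinase that signals from this receptor, was at 65.4 ± 10.97 CPM in Ly6C- GMP and 621 ± 101 in Ly6Chi monocytes. Of 15 listed genes of interleukin-5, interleukin-3 and GM-CSF signalling 12 were tested, and from Ly6C- GMP to proNeu1 1 rose (Csf2ra, 1.21 ± 0.12) and 3 fell (Csf2rb2, Jak2 and Pim1), where 3.59% of all genes were called higher and 2.45% lower, with a median of -0.42 against 0.00 over all genes. From Ly6C- GMP to cMoP 4 rose, Csf2ra, Csf2rb, Il3ra and Lyn, and Bcl2l1, Jak1 and Jak2 fell, where the shares over all genes were 9.22% and 7.96%. The cytokine genes Il5, Il3 and Csf2 had no counts in any group.

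Across the 33 libraries the levels of 6 of the genes were closely correlated, and those of Ear2 less so. Pearson's r of log2(CPM + 1) was 0.988 between Prg2 and Epx, 0.959 between Prg2 and Prg3 and 0.965 between Ear1 and Ear6. Between Prg2 and Ear2 it was 0.434, and over the 27 libraries outside Ly6C- GMP it was -0.193, where Prg2 with Epx kept 0.954 and Ear1 with Ear6 0.920. Other pairs were lower there, with 0.812 for Prg2 and Prg3, 0.745 for Prg2 and Ear6, 0.637 for Prg3 and Ear1 and 0.458 for Prg3 and Il5ra. These values are descriptions, since libraries of a group share a population, and they rest largely on the distance between Ly6C- GMP and the rest.

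**Figure D2:**
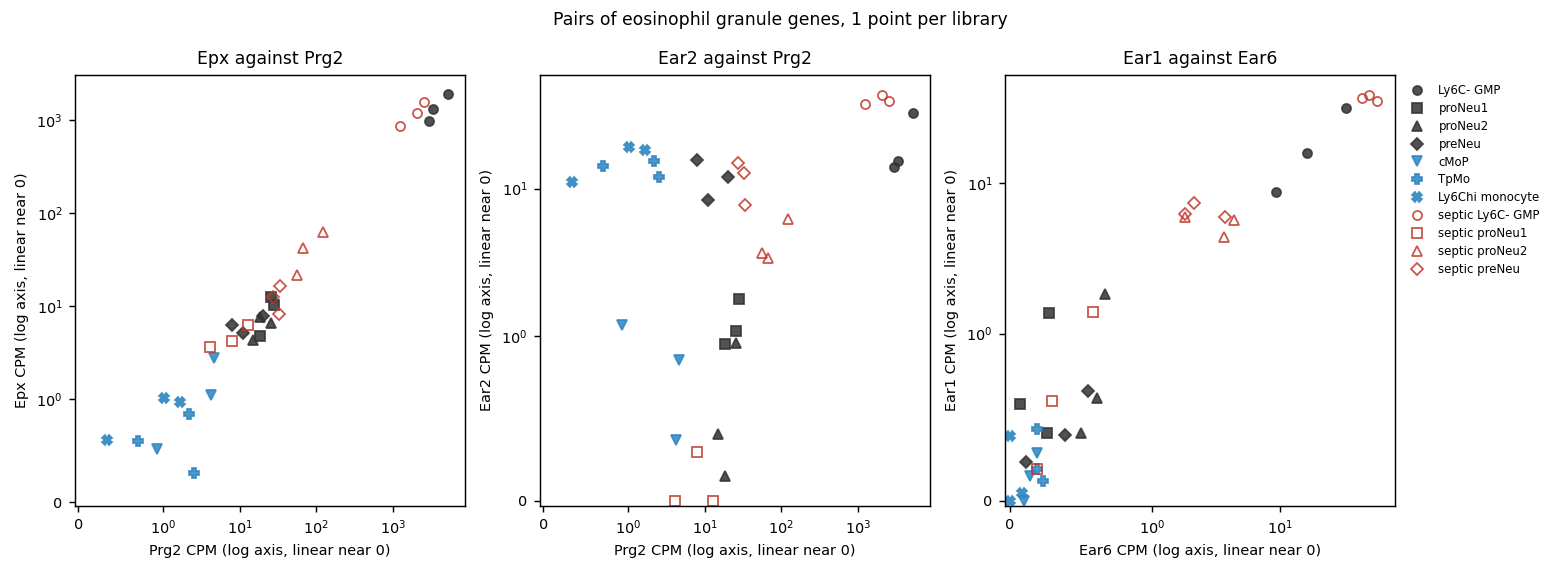
Levels of gene pairs in CPM (both axes logarithmic above 1 and linear below), 1 point per library, with filled symbols for control and open symbols for septic groups. Epx lies along Prg2 over the whole range, while Ear2 is also high in preNeu, TpMo and Ly6Chi monocytes, where Prg2 is at 33.4 CPM or less, and Ear1 and Ear6 are both raised in septic proNeu2 and septic preNeu.

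In septic Ly6C- GMP 1 of the 7 genes, Ear6, was called, and the others did not pass the test. Prg2 was at 2552, 1243 and 2067 CPM, below every control library (-0.98 ± 0.41, edgeR adjusted p = 0.105). Prg3 was at 203, 86.8 and 118 CPM, also below every control library (-1.22 ± 0.56, adjusted p = 0.139). Epx was at 1566, 851 and 1182 CPM and overlapped the controls (-0.22 ± 0.36, adjusted p = 0.758). None of these 3 differences passed the test in the full fit. With the counts halved or with only the 6 compared libraries fitted, Prg2 (adjusted p = 0.0456 and 0.035) and Prg3 (0.0427 and 0.0229) were called lower.

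The ribonuclease genes were above every control library in the same septic gate. How many of all genes lay above their controls in this way was not counted. Ear6 was at 57.1, 44.2 and 49.4 CPM, against at most 33.2 in the controls, and was called higher (1.36 ± 0.48, edgeR adjusted p = 0.0481). It was 1 called gene of 7 where 10.3% of all genes were called higher and 7.42% lower. The call was lost without the shallow libraries (adjusted p = 0.0611), under RLE scaling (0.0545) and without the low-count filter (0.0845). It was also lost when any library of the gate other than control replicate 1 was left out (0.0897 to 0.218). Summed over the Ear family the change was 1.11 ± 0.41 and was not called (adjusted p = 0.0615). Ear1 was at 35.4, 36.9 and 38.7 CPM (0.98 ± 0.64, adjusted p = 0.332) and Ear2 at 39.4, 37.6 and 43.1 CPM (0.96 ± 0.48, adjusted p = 0.181), and both were called only by limma (adjusted p = 0.0011 and 0.00103), which also called Prg2 and Prg3 lower (3.33e-05 and 3.7e-05). The septic libraries lay closer together than the controls, with an SD of 1.64 against 11.7 CPM for Ear1. Il5ra was at 21.7, 10.5 and 13.5 CPM and overlapped its controls (-0.48 ± 1.25, adjusted p = 0.86).

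Ratios of counts within a library need no scaling between libraries. In control Ly6C- GMP there were 0.00534 Ear2 counts for each Prg2 count, with libraries from 0.00455 to 0.00623. In septic Ly6C- GMP the ratio was 0.0207, with libraries from 0.0154 to 0.0303. Ear6 per Prg2 went from 0.00504 (0.00317 to 0.00633) to 0.0258 (0.0224 to 0.0356), and Ear1 per Prg2 from 0.00483 to 0.0191. Prg2 per Epx went from 2.76 (2.59 to 3.01) to 1.63 (1.46 to 1.75). In each of these ratios the 3 septic libraries lay on 1 side of the 3 controls. These ratios are given as a description, with no test.

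**Figure D3:**
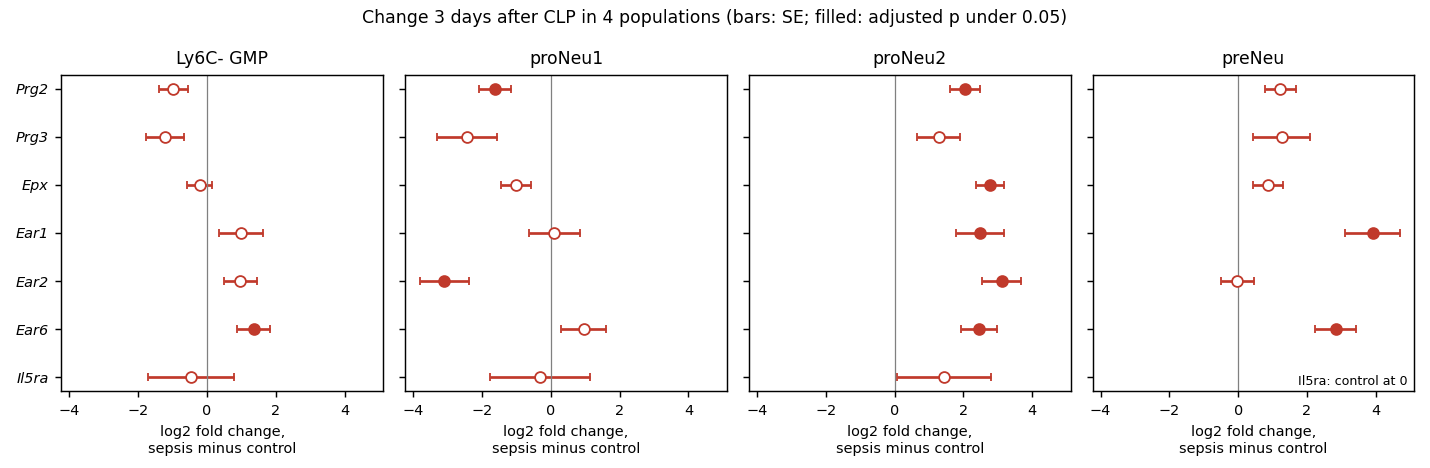
Log2 fold change of septic against control libraries (horizontal axis, septic minus control) for the 7 genes (vertical axis) in 4 populations, with bars of 1 SE and filled points for an adjusted p under 0.05. Filled points lie to the right of 0 in Ly6C- GMP (1 gene), proNeu2 (5 genes) and preNeu (2 genes) and to the left in proNeu1 (2 genes), and Il5ra is not drawn for preNeu because its control libraries are at 0.

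In septic proNeu1 Prg2 and Ear2 were called lower, and the other 5 genes were not called. Prg2 was at 13.0, 7.85 and 4.08 CPM, below the 3 control libraries (-1.62 ± 0.46, edgeR adjusted p = 0.0161). Ear2 had counts in 1 of 3 septic libraries, at 0.294 CPM, against 0.954 to 1.78 CPM in the controls (-3.10 ± 0.71, adjusted p = 0.00305). These were 2 called genes of 7, beside 15.6% of all genes called either way, 8.3% higher and 7.3% lower. Prg3 was at 0.419 ± 0.364 CPM against 2.41 ± 1.27 (-2.44 ± 0.87, adjusted p = 0.055) and Epx at 4.68 ± 1.40 against 9.20 ± 3.96 (-1.02 ± 0.43, adjusted p = 0.115). Without control proNeu1 replicate 3 both were called lower (adjusted p = 0.034 and 0.0401). Prg3 was also called lower by edgeR under the stricter filter (adjusted p = 0.041) and by DESeq2 (0.034). Prg2 lost its call without septic proNeu1 replicate 2 or 3 (adjusted p = 0.0592 and 0.126), without the low-count filter (0.0503) and by limma (0.248). With only the 6 compared libraries fitted, Ear2 lost its call (adjusted p = 0.0916). With the counts of the Ear family summed, the change was -0.74 ± 0.50 and was not called (adjusted p = 0.358). Ear1, Ear6 and Il5ra overlapped their controls, each at 1.39 CPM or less in every library.

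Within sepsis, proNeu1 again stood far below Ly6C- GMP. Of the 7 genes, 6 were called lower, against 0.456% of all genes tested, with changes from -5.60 ± 0.80 for Ear1 to -8.40 ± 0.85 for Prg3. Il5ra had a change of -5.25 ± 1.55 without a call in the full fit (edgeR adjusted p = 0.128), although its 3 libraries lay below those of septic Ly6C- GMP. It was called lower by edgeR with the counts halved (adjusted p = 0.0428) and with only the compared libraries fitted (0.00268). DESeq2 (adjusted p = 0.0425) and limma (0.000623) called it lower too.

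Septic proNeu2 was the population where most of the genes rose. Prg2 was at 122, 55.6 and 68.1 CPM, against 26.0, 14.999 and 18.5 in the controls (2.05 ± 0.43, edgeR adjusted p = 0.00121). Epx was at 62.8, 21.7 and 42.5 CPM, against 6.57, 4.29 and 7.67 (2.78 ± 0.41, adjusted p = 1.57e-05). No septic library of either gene overlapped a control library, and replicate 1 was the highest for both. Ear1 rose to 5.34 ± 0.83 CPM from 0.946 ± 0.767 (2.48 ± 0.70, adjusted p = 0.0129), Ear2 to 4.45 ± 1.57 from 0.506 ± 0.413 (3.11 ± 0.57, adjusted p = 0.000245) and Ear6 to 3.29 ± 1.32 from 0.596 ± 0.085 (2.45 ± 0.53, adjusted p = 0.00153).

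These were 5 called genes of 7, where 9.45% of all genes were called higher, and the median change of the 7 genes was 2.45 against 0.00 over all genes. Prg3 was at 9.53, 4.21 and 4.10 CPM, above the highest control library of 3.78, and was not called (1.29 ± 0.63, adjusted p = 0.171). Il5ra was at 0, 2.61 and 1.82 CPM and overlapped its controls (adjusted p = 0.534). Without control proNeu2 replicate 3, the only control library with Il5ra counts, it was called higher (adjusted p = 0.0315). Ear1 lost its call without control proNeu2 replicate 2 or 3 (adjusted p = 0.0734 and 0.0696), and Prg2 was not called by limma (adjusted p = 0.0834). Summed over the Ear family the rise was 2.68 ± 0.46 (adjusted p = 0.00011).

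Listed genes of basophils, mast cells and mature eosinophils were not called higher in septic proNeu2. Cpa3, the mast cell carboxypeptidase, and Prss34, a basophil protease, are abundant in Ly6C- GMP, and both were called lower in septic than in control proNeu2, Cpa3 at 0.939 ± 1.00 against 4.06 ± 0.46 CPM and Prss34 at 3.37 ± 1.96 against 24.3 ± 5.7 CPM. Cd34, a progenitor marker at 417 ± 4.4 CPM in control Ly6C- GMP, was at 6.51 ± 1.21 against 11.3 ± 2.1 CPM in control proNeu2 (adjusted p = 0.403). The 13 basophil and mast cell genes summed to 280.1 to 327 CPM in septic and 1160.4 to 1263 CPM in control proNeu2, mostly from Hdc and Kit, and 5 of them, Tpsb2, Tpsab1, Cma1, Cd200r3 and Gzmb, were at 0 in the septic libraries. In control proNeu2 5 were at 0 as well, Il4 in place of Gzmb. Mcpt8, a basophil protease, was at 12.9 ± 1.5 against 10.99 ± 2.32 CPM without a call. The 7 markers of mature eosinophils summed to 63.6 to 96.2 CPM in septic and 79.8 to 105 CPM in control proNeu2. Siglecf, the surface lectin of mouse eosinophils, made up most of that sum at 63.3 ± 13.8 against 75.6 ± 9.3 CPM, and Ccr3, the eotaxin receptor, was at 0.775 ± 0.791 against 1.23 ± 1.67 CPM. Alox15, a lipoxygenase of mature eosinophils, was at 4.49 ± 2.12 against 2.80 ± 1.71 CPM, and none of these was called. The part of these other cells in the rise of the granule genes was not tested.

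In septic preNeu, Ear1 and Ear6 rose, and Ear2 overlapped its controls. Ear1 was at 7.43, 6.25 and 5.94 CPM, against 0.228, 0.658 and 0.391 in the controls (3.90 ± 0.79, edgeR adjusted p = 0.00114). Ear6 was at 2.15, 1.82 and 3.71 CPM, against 0.114, 0.548 and 0.391 (2.83 ± 0.60, adjusted p = 0.00185). Both genes were far above every control library, and they were 2 called of 7 where 7.57% of all genes were called higher. Ear2 was at 12.7, 14.9 and 7.80 CPM, against 12.03, 15.7 and 8.41 (-0.03 ± 0.49, adjusted p = 1). Ear1 counts per Ear2 count were 0.516 in septic preNeu, with libraries from 0.42 to 0.762, and at most 0.0465 in any control preNeu library.

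Prg2, Epx, Prg3 and Il5ra were also above their highest control library in each septic preNeu library, without a call in edgeR's full fit. Prg2 was at 32.2, 27.0 and 33.4 CPM against 20.0, 8.003 and 10.95 (1.23 ± 0.45, edgeR adjusted p = 0.0768), and without control preNeu replicate 1 it was called (adjusted p = 0.0468). Epx was at 12.4 ± 4.0 against 6.38 ± 1.37 CPM (adjusted p = 0.214) and Prg3 at 2.53 ± 1.99 against 0.785 ± 0.403 (adjusted p = 0.384). For these genes the margin was thin. The lowest septic library held 8.30 CPM of Epx against 7.81 in the highest control, and 1.21 CPM of Prg3 against 1.197. How many of all genes lay apart in this way was not counted. Il5ra was detected in all 3 septic libraries, at 1.17, 1.61 and 1.11 CPM, and in none of the controls. Against a floor of 3 counts over the control group Il5ra was 17.7-fold higher. That bound would be lower if a fragment can give more than a single count. Its adjusted p was 0.0652 in edgeR's full fit. It was called by edgeR under the stricter filter (adjusted p = 0.047) and with only the 6 compared libraries fitted (0.0254). DESeq2 (adjusted p = 0.0111) and limma (0.0381) called it too. Ear6 lost its call with only the 6 compared libraries fitted (adjusted p = 0.0685) and by limma (0.0835), and with the Ear family summed the change was 0.70 ± 0.42 (adjusted p = 0.329), since Ear2 holds most of that sum. Of the mature eosinophil genes, Alox15 was at 20.9 ± 3.8 against 3.72 ± 1.24 CPM without a call (adjusted p = 0.0859), Siglecf at 44.3 ± 6.1 against 47.5 ± 20.2 CPM, and Adgre1 was called higher. Of 11 basophil and mast cell genes tested, Cpa3, Hdc, Kit and Prss34 were called lower in septic preNeu, where 4.21% of all genes were called lower. Their part in the result was not tested.

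The sepsis effects of the 4 populations differed for 4 of the 7 genes in edgeR's interaction test, where 6.34% of all genes were called. The adjusted p was 0.000457 for Prg2, 0.0413 for Prg3, 0.000339 for Epx and 0.000325 for Ear2. The changes of Prg2 were negative in Ly6C- GMP (-0.98) and proNeu1 (-1.62) and positive in proNeu2 (2.05) and preNeu (1.23). Those of Ear2 were 0.96, -3.10, 3.11 and -0.03 in the same order. The test was not passed by Ear1 (adjusted p = 0.0793), Ear6 (0.374) or Il5ra (0.311). The call for Prg3 was lost without the shallow libraries and in most fits that left out 1 library.

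Among regulators of the lineage, the GATA factor genes Gata1 and Gata2 were highest in control Ly6C- GMP and were called lower in septic Ly6C- GMP, proNeu1 and proNeu2. In septic preNeu only Gata2 was called lower. Gata1 had 53.8 ± 16.4 CPM in control Ly6C- GMP and 10.5 ± 6.4 in proNeu1 (-2.37 ± 0.68, edgeR adjusted p = 0.0335), and 0.206 ± 0.015 in cMoP. Gata2, a factor of stem, mast and eosinophil progenitors, was at 193 ± 70.7, 4.48 ± 2.66 and 2.74 ± 0.65 CPM in the same groups. In septic Ly6C- GMP Gata1 was at 9.62 ± 1.27 CPM (-2.48 ± 0.68, adjusted p = 0.0105) and Gata2 at 19.8 ± 5.4 (-3.28 ± 0.79, adjusted p = 0.00351), in a gate that still held 1954 ± 662 CPM of Prg2 and 1200 ± 358 CPM of Epx. In septic proNeu2 Gata1 fell from 6.22 ± 5.25 to 1.10 ± 0.63 CPM (-2.48 ± 0.71, adjusted p = 0.014) and Gata2 from 4.78 ± 1.58 to 0.574 ± 0.452 CPM (-3.02 ± 0.90, adjusted p = 0.0186).

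Of the 12 regulators listed, all tested, 3 rose and 4 fell in septic Ly6C- GMP, 4 rose and 3 fell in septic proNeu1, 3 rose and 4 fell in septic proNeu2, and 1 rose and 1 fell in septic preNeu. Over all genes the shares called higher and lower were 10.3% and 7.42%, 8.3% and 7.3%, 9.45% and 7.57%, and 7.57% and 4.21% in the same order. Xbp1, which eosinophil progenitors need for secretory capacity, rose in all 4 populations, by 0.87 ± 0.09 in Ly6C- GMP and 0.32 ± 0.09 in preNeu. Cebpe, a C/EBP factor of granulocyte maturation, fell in septic Ly6C- GMP from 195 ± 32.7 to 59.4 ± 40.3 CPM and in septic proNeu2 from 492 ± 39.2 to 87.2 ± 50.4 CPM. Id1, an inhibitor of helix-loop-helix factors, rose in septic Ly6C- GMP, proNeu1 and proNeu2, and Cebpb rose in septic proNeu1 to 27.3 ± 5.7 CPM. In septic Ly6C- GMP Cebpb was called as well, at 4.34 ± 7.202 CPM, with 1 library at 0 and 1 at 12.65 CPM. Spi1, the gene of PU.1, was at 248 ± 16.4 CPM in control Ly6C- GMP and between 250.7 and 835 CPM on average in the other groups, and was called in none of the 11 comparisons by edgeR.

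In the interleukin-5 pathway, the receptor's beta chain gene Csf2rb rose in sepsis in all 4 populations, while Il5ra was called in none of them by edgeR's full fit. Septic Ly6C- GMP held 431 ± 27.6 CPM of it and septic preNeu 1168 ± 73.2, with proNeu1 (553 ± 53.3) and proNeu2 (732 ± 49.6) between, and the changes ran from 1.27 ± 0.14 to 2.20 ± 0.15. Lyn was called higher in all 4 populations as well, and Pim1, a kinase gene induced by STAT5, in proNeu1, proNeu2 and preNeu. Jak2 fell in septic Ly6C- GMP (-1.44 ± 0.21) and proNeu2 (-1.03 ± 0.21). Il3ra and Stat5b also fell in Ly6C- GMP, Csf2ra in proNeu1 and proNeu2, and Bcl2l1 in proNeu2. Of the 12 pathway genes tested, 2 rose and 3 fell in septic Ly6C- GMP, and 4 rose and 1 fell in proNeu1. In proNeu2 5 rose and 3 fell, and in preNeu 4 rose and 0 fell. Over all genes the shares called higher and lower were 10.3% and 7.42%, 8.3% and 7.3%, 9.45% and 7.57%, and 7.57% and 4.21%.

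**Figure D4:**
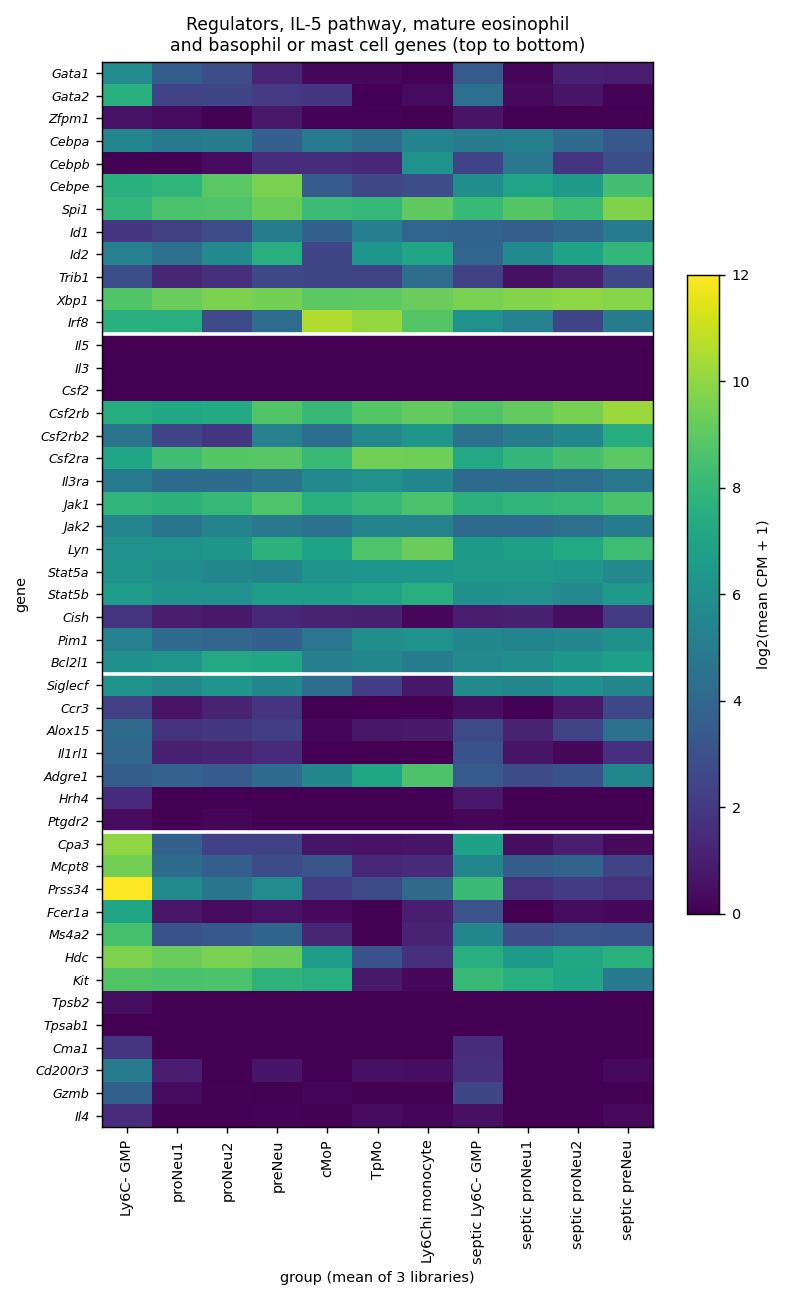
Mean level of the listed genes as log2(CPM + 1) (colour scale) in 11 groups (columns, means of 3 libraries), with white lines between regulators, interleukin-5 pathway genes, mature eosinophil genes and basophil or mast cell genes. Gata1, Gata2 and the basophil and mast cell genes Prss34, Cpa3, Mcpt8 and Ms4a2 are bright in control Ly6C- GMP and darker in septic Ly6C- GMP, while Csf2rb is brighter in each septic group than in its control.

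Basophil and mast cell genes were abundant in the control Ly6C- GMP gate, and most of those tested fell in sepsis. The 13 listed genes summed to 8357 to 11532 CPM in control Ly6C- GMP and 632 to 1444 CPM in septic Ly6C- GMP. Of 11 tested, 8 fell, where 7.42% of all genes were called lower, among them Prss34 from 6156 ± 1160 to 285 ± 242 CPM (-4.43 ± 0.57, edgeR adjusted p = 2.67e-06) and Mcpt8 from 722 ± 174 to 45.1 ± 30.1 CPM (-4.00 ± 0.38, adjusted p = 1.52e-08). The median change of the list was -3.04, against -0.01 over all genes tested. That of the 7 eosinophil genes, which lay on both sides of 0, was -0.22, and the difference between the lists was not tested. For each Cpa3 count there were 3.74 Prg2 counts in control (3.26 to 4.24) and 17.2 in septic Ly6C- GMP (13.9 to 26.7). Prg2 per Mcpt8 went from 5.30 (4.46 to 5.71) to 44.2 (32.0 to 74.1). Control and septic libraries did not overlap in either ratio. Whether fewer basophil and mast cell precursors in the gate bore on the levels of the eosinophil genes was not tested.

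Markers of mature eosinophils were low in Ly6C- GMP beside Prg2, Prg3 and Epx, and 5 of the 6 tested were called lower in cMoP. Beside the other genes they were not all low, since Siglecf stood above Ear1, Ear2, Ear6 and Il5ra there. The highest mean of those was 21.3 CPM, for Il5ra. Siglecf had 70.4 ± 13.4 CPM in Ly6C- GMP, was not called lower in proNeu1 at 50.5 ± 8.6 and stood at 75.6 ± 9.3 in proNeu2, where Prg2 was at 19.8 CPM. Ccr3 was at 3.84 ± 1.15 CPM in Ly6C- GMP and 0.547 ± 0.788 in proNeu1, Alox15 at 16.7 ± 5.9 and 2.41 ± 2.06, and Il1rl1, the interleukin-33 receptor, at 14.6 ± 2.9 and 1.07 ± 0.49, none of them called at that step. The median change of the list was -2.78 to proNeu1 and -6.81 to cMoP, against 0.00 over all genes. Of the 7 listed, 6 were tested. From Ly6C- GMP to proNeu1 Hrh4, a histamine receptor gene, was called lower, where 2.45% of all genes were called lower. To cMoP, Siglecf, Ccr3, Alox15, Il1rl1 and Hrh4 were called lower and Adgre1, the F4/80 gene, higher. At that step 7.96% of all genes were called lower and 9.22% higher. In the sepsis comparisons, Adgre1 in preNeu was the only one of the 6 called, where 7.57% of all genes were called higher.

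Among other ribonucleases of the RNase A superfamily, Rnase12 was lower after Ly6C- GMP, as Ear1 and Ear6 were, while Rnase6 was highest in Ly6Chi monocytes. Rnase12 was at 32.9 ± 7.1 CPM in Ly6C- GMP and 0.797 ± 0.268 in proNeu1 (-5.41 ± 1.17, edgeR adjusted p = 0.00444), and was at 7.85 ± 4.23 CPM in septic Ly6C- GMP. Rnase6 had 42.2 ± 6.0 CPM in Ly6C- GMP and 2.02 ± 1.61 in proNeu1, against 76.7 ± 12.1 in TpMo and 165 ± 48.4 in Ly6Chi monocytes, and fell in septic Ly6C- GMP (-4.70 ± 0.59, adjusted p = 1.67e-06), where Ear1, Ear2 and Ear6 were above their controls. Rnase2b, a close relative of the Ear genes, was called higher in TpMo, at 0.726 ± 0.304 CPM, than in cMoP, where it had no counts, and was at 1.81 ± 0.88 CPM in Ly6Chi monocytes.

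The genes closest in pattern, the 7 genes themselves left out, were searched among 8387 genes with a group mean of at least 20 CPM, by Pearson's r of log2(CPM + 1) over 33 libraries. For Epx they were Rnase12 (0.891), Ms4a2 (0.885), Itga2b (0.882), Slc45a3 (0.877) and Cpa3 (0.863). Prg2, Prg3, Ear1, Ear6 and Il5ra had Rnase12, Slc45a3 and Itga2b among their closest 5 as well, and Prg2 had Ms4a2 first (0.899). Ear1 had Ifitm1 (0.784) and Cd55 (0.765) first. Ear2 shared none of these genes: its closest were Fam129a (0.731), Napg (0.665), Samsn1 (0.635), Cdc42se2 (0.628) and Ccr1 (0.627).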

How the data were processed

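The deposited table holds raw read counts per gene for 33 libraries, aligned to GRCm38 with STAR and counted with featureCounts, per the submitters' processing notes. Tool versions, strand, multimapping and mate settings are not given in the sources used here, and 76.2% of counts from 1 to 10 were even. Of 54752 features, 54723 matched a symbol in GENCODE. After edgeR's filter on low counts 18198 genes were tested with edgeR 4.0.16 (R 4.3.3): TMM scaling, robust quasi-likelihood test over all 33 libraries, Benjamini-Hochberg adjustment, calls at 0.05. The script was tested on simulated data. Groups came from the sample labels. A p-value reflects how far biological replicates differ within groups, with the spread of a gene estimated over all 11 groups together and moderated across genes. It does not rest on the spread of the compared groups alone.

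The 7 genes and all gene lists were chosen with earlier results of these data known. Genes named are the 7, listed genes that were called or reached 20 CPM in a group, and the 5 closest in pattern to each; others were named after their values were seen. Alternatives were RLE scaling, no or a stricter filter, halved counts, without the 5 shallow libraries, only the compared libraries, leaving out each library, limma 3.58.1, DESeq2 1.42.0, plain CPM and summed Ear counts.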

Additional observations from a re-analysis of the deposited data

Results flagged for a closer look

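The change with sepsis differed between Ly6C- GMP, proNeu1, proNeu2 and preNeu for 4 of the 7 genes, by edgeR's interaction test adjusted over all genes. For Prg2 the adjusted p was 0.000457, with a fall called in proNeu1 (-1.62) and a rise called in proNeu2 (2.05), neither called by limma. For Epx it was 0.000339, with a rise called in proNeu2 (2.78) and no call in the other 3 populations. For Ear2 it was 0.000325, with a fall called in proNeu1 (-3.10) and a rise called in proNeu2 (3.11). With the Ear counts summed, only the rise was called. For Prg3 the adjusted p of the interaction test was 0.0413, with no population called on its own in edgeR's full fit. That result was lost when any of several single libraries was left out.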

How the results depend on the processing

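Of 1100 recomputed changes of the 7 genes, 1009 kept their direction and side of the threshold, 29 lost a call, 28 gained one and 34 reversed; the cause was not tested. In septic Ly6C- GMP 1 gene was called, 0 under RLE scaling, without the low-count filter or without the shallow libraries, 3 with halved counts or only the compared libraries, 5 by limma and 0 to 1 leaving out 1 library. In septic proNeu1 2 were called, 1 without the filter, with only the compared libraries or by limma, and 1 to 4 leaving out 1 library. DESeq2 called 2 from proNeu2 to preNeu and 2 from cMoP to TpMo, where leaving out 1 library gave 1 to 2, and 0 to 1 from TpMo to Ly6Chi monocyte. The genes that DESeq2 called beside Ear2 were Il5ra, lower in preNeu (adjusted p = 0.0367), and Epx, lower in TpMo (0.035).

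Reversals were of changes that were not called. From proNeu1 to proNeu2, Il5ra was -0.047 without the shallow libraries, -1.46 by limma and -6.35 to 3.02 leaving out 1 library, Prg3 -0.14 by limma and -0.29 to 0.51, and Ear1 -0.45 to 0.94. In septic proNeu1, Ear1 was -0.018 with only the compared libraries, -0.38 by limma and -1.06 to 0.61, and Il5ra 0.23 by limma and -1.56 to 2.57. Leaving out 1 library gave -0.47 to 0.079 for Epx in septic Ly6C- GMP, -0.12 to 0.27 for Epx from proNeu2 to preNeu, -0.22 to 0.22 for Ear2 in septic preNeu, and from TpMo to Ly6Chi monocyte -2.70 to 0.15 for Ear1 and -6.36 to 0.55 for Prg3. Summing the Ear genes gave -0.046 for Ear1 and Ear6 from proNeu1 to proNeu2, 2.65 from proNeu2 to preNeu, 0.17 from TpMo to Ly6Chi monocyte and -0.74 in septic proNeu1, and 0.70 for Ear2 in septic preNeu.

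Counts over all genes moved by over 1.5 times in these cases. In septic proNeu1 2839 became 1745 without the shallow libraries and 1880 without septic proNeu1 replicate 3. From proNeu1 to proNeu2 555 became 353 with only the compared libraries, 1102 by DESeq2 and 226 to 334 without proNeu1 replicate 1, 2 or 3 or proNeu2 replicate 2 or 3. In septic preNeu 2145 became 1219 with only the compared libraries and 1226 without preNeu replicate 1. From septic Ly6C- GMP to septic proNeu1 234 became 489 with only the compared libraries, 769 by limma, 463 by DESeq2 and 96 to 136 without septic Ly6C- GMP replicate 1 or septic proNeu1 replicate 2 or 3. The interaction count of 1154 became 2227 by limma, 2081 by DESeq2 and 734 without preNeu replicate 2. From Ly6C- GMP, proNeu1 went from 1100 to 711 without proNeu1 replicate 3 and cMoP from 3126 to 4958 by limma, cMoP to TpMo from 3290 to 5405 by limma, and septic proNeu2 from 3097 to 2060 without proNeu2 replicate 2.

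No paired analysis was possible because the replicate numbers do not pair libraries of different groups. Levels under 1 CPM rest on few counts in the 5 shallow libraries.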
